A study of Mus musculus with 7 samples.

Results

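The Slc22 family encodes membrane carriers of small organic ions, and its organic anion branch moves drugs, metabolites and urate across the proximal tubule of the kidney. Described here are 10 mouse genes of that branch, chosen by name: Slc22a6, Slc22a7, Slc22a8, Slc22a12, Slc22a13, Slc22a19, Slc22a22, Slc22a28, Slc22a29 and Slc22a30. They are 10 of the 54532 genes in the deposited count table, the rule uses names and no measured value, and all 10 had enough reads to be tested. Bulk RNA-seq was available for 7 kidney libraries from male C57BL/6J mice of 6 to 8 weeks of age. Every library came from an animal injected through the tail vein with cisplatin (20 mg/kg), a platinum drug that injures the kidney tubule. The 3 libraries labelled DXZ came from animals that also received DXZ (40 mg/kg) by the same route, starting 30 min ahead of cisplatin and repeated at intervals of 24 h over 3 days. The 4 libraries labelled saline carry only that word beside the cisplatin. The labels do not spell out DXZ, and it is written here as they write it. No kidney without cisplatin was analysed here, so levels before injury are unknown. The labels do not say whether the libraries came from separate animals, and the p-values measure the spread between these samples, which may be technical.

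Organic anions reach the urine by being taken up from blood at the basolateral face of the proximal tubule cell and released at its apical face. Uptake is done mainly by OAT1 and OAT3, encoded by Slc22a6 and Slc22a8, which exchange the anion for dicarboxylate and carry many drugs and uremic solutes. At the apical face URAT1, encoded by Slc22a12, takes urate back from the tubular fluid. Several of the other members are rodent genes whose substrates are less well known.

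All 10 genes had lower fitted levels in DXZ kidneys than in saline kidneys, and 3 of them passed the test: Slc22a8, Slc22a22 and Slc22a29. By edgeR's quasi-likelihood test, with Benjamini-Hochberg adjustment over all 15351 tested genes and a threshold of 0.05, 3 of 10 fell and 0 rose. Among all tested genes, 2.31% fell and 3.24% rose. The median log2 fold change of the 10 genes was -1.85, against 0.01 for all tested genes, of which 7478 had a negative fold change. Without saline 1 the median of the 10 genes was -1.17, and without DXZ 1 it was -2.88. An unadjusted p under 0.05 was reached by 9 of the 10, the exception being Slc22a7, and by 3899 of the 15351 genes. The CPM ranges of the groups did not overlap for 6 of the 10, each time lower in DXZ, and 11.3% of all tested genes were lower without overlap. CPM here is the read count scaled to library size by edgeR (its cpm function, with TMM scaling). In bulk kidney RNA, fewer cells of a type and less of an RNA per cell cannot be told apart.

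**Figure D1:**
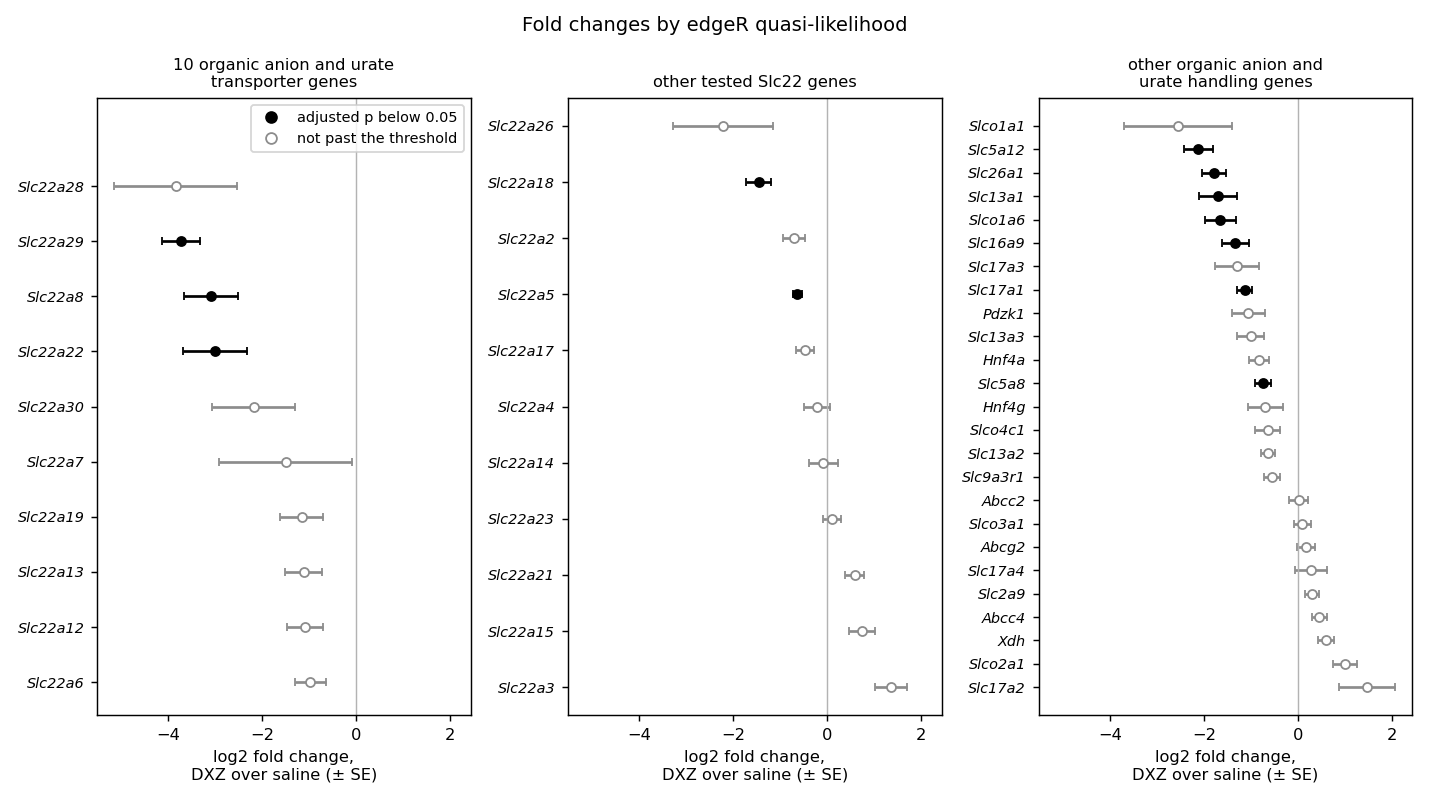
Log2 fold change of DXZ over saline with its SE (horizontal axis) for the 10 organic anion and urate transporter genes (left), other tested Slc22 genes (middle) and other genes of organic anion and urate handling (right). Filled points passed an edgeR adjusted p of 0.05. All 10 points of the left panel lie below 0, the filled ones belonging to Slc22a29, Slc22a8 and Slc22a22.

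The tissue label was checked against marker genes fixed by cell type. Proximal tubule markers were abundant in every library, and 8 of 12 fell, with a median log2 fold change of -1.52. Their summed level was 3968 to 5404 CPM in DXZ kidneys and 9063 to 20919 CPM in saline kidneys. Among their defining members, Lrp2, which encodes megalin, stood at -1.64 on the log2 scale (edgeR adjusted p = 0.0234), Cubn at -1.08 (0.0281) and Slc34a1 at -2.88 (0.0373). Of 9 markers of the early proximal tubule 3 fell, and their sum was 1175 to 1508 CPM in DXZ kidneys and 3092 to 7161 CPM in saline kidneys. Of 7 markers of the late proximal tubule 1 fell, and their sums overlapped, at 1570 to 2190 CPM in DXZ kidneys and 1991 to 2648 CPM in saline kidneys. A large part of this sum was Slc6a18, at 874 to 1228 CPM in DXZ kidneys and 732 to 1102 CPM in saline kidneys. Slc6a18 stood at 0.12 on the log2 scale. Slc7a13, the first of the late list, stood at -3.56 without overlap and did not pass (edgeR adjusted p = 0.0926). Of 9 markers of injured tubule 3 rose, among them Krt8 by 1.20 on the log2 scale (edgeR adjusted p = 0.0204), while Havcr1 (1.67) and Lcn2 (2.02) did not pass (0.207 and 0.145). The injured tubule markers summed to 22077 to 36516 CPM in DXZ kidneys and 8302 to 23785 CPM in saline kidneys. Most of this sum was Spp1, at 16663 to 27621 CPM in DXZ kidneys and 6465 to 20087 CPM in saline kidneys. Spp1 stood at 0.47 on the log2 scale and did not pass (edgeR adjusted p = 0.526). Hepatocyte markers, relevant because the liver also uses Slc22a7, summed to 21.6 to 34.1 CPM in DXZ kidneys and 25.4 to 64.8 CPM in saline kidneys, and 0 of 4 changed. Of 3 distal convoluted tubule markers 2 fell, with a sum of 66.0 to 91.2 CPM in DXZ kidneys and 194 to 276 CPM in saline kidneys. Of the other lists, 1 principal cell marker and 1 macrophage marker rose. No marker of thick ascending limb, intercalated cell, podocyte, endothelium, fibroblast or neutrophil passed the test, nor did the 1 of 4 T cell markers that was tested. Some of these lists were uneven within a group. Fibroblast markers summed to 507, 54.2 and 34.7 CPM in DXZ 1 to 3 and 317, 349, 146 and 77.5 CPM in saline 1 to 4. Endothelium markers summed to 222, 80.5 and 51.0 CPM and to 187, 215, 173 and 137 CPM in the same order. For both lists DXZ 1, saline 1 and saline 2 were the highest libraries, as for Slc22a7 below, and a link was not tested. Red blood cell markers summed to at most 0.363 CPM, with Hbb-bt at 0 in all libraries. The sum of the 10 transporter genes, like the proximal tubule sum, was lower in every DXZ library: it was 831, 495 and 1183 CPM in DXZ 1 to 3 and 3467, 1629, 1335 and 1896 CPM in saline 1 to 4. The part of tubule cell loss or injury in the results below was not tested. Total counts were 16058157 to 18133736 per library, with 20803 to 21827 genes detected and 5.18% to 8.36% of reads mitochondrial.

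The 10 genes spanned a wide range of levels. On the FPKM scale, which corrects for gene length, mean levels in DXZ kidneys ran in the order Slc22a12 (180.4), Slc22a6 (70.9), Slc22a13 (18.7), Slc22a8 (10.4), Slc22a7 (7.80), Slc22a19 (5.49), Slc22a30 (2.69), Slc22a22 (2.32), Slc22a28 (0.928) and Slc22a29 (0.397). In saline kidneys mean FPKM ran in the order Slc22a12 (388), Slc22a6 (140.3), Slc22a8 (89.5), Slc22a13 (40.9), Slc22a7 (22.5), Slc22a22 (18.7), Slc22a28 (13.6), Slc22a30 (12.4), Slc22a19 (12.3) and Slc22a29 (5.37). Most neighbours in these orders overlapped between libraries. In DXZ kidneys the only neighbours whose ranges were apart were Slc22a6, at 53.1 to 97.3 FPKM, and Slc22a13, at 7.82 to 27.8 FPKM. In saline kidneys they were Slc22a12, at 282 to 573 FPKM, and Slc22a6, at 104 to 226 FPKM. Slc22a8 was thus next to Slc22a6 in the saline order and below Slc22a13 in the DXZ order, although its DXZ range overlapped that of Slc22a13.

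**Figure D2:**
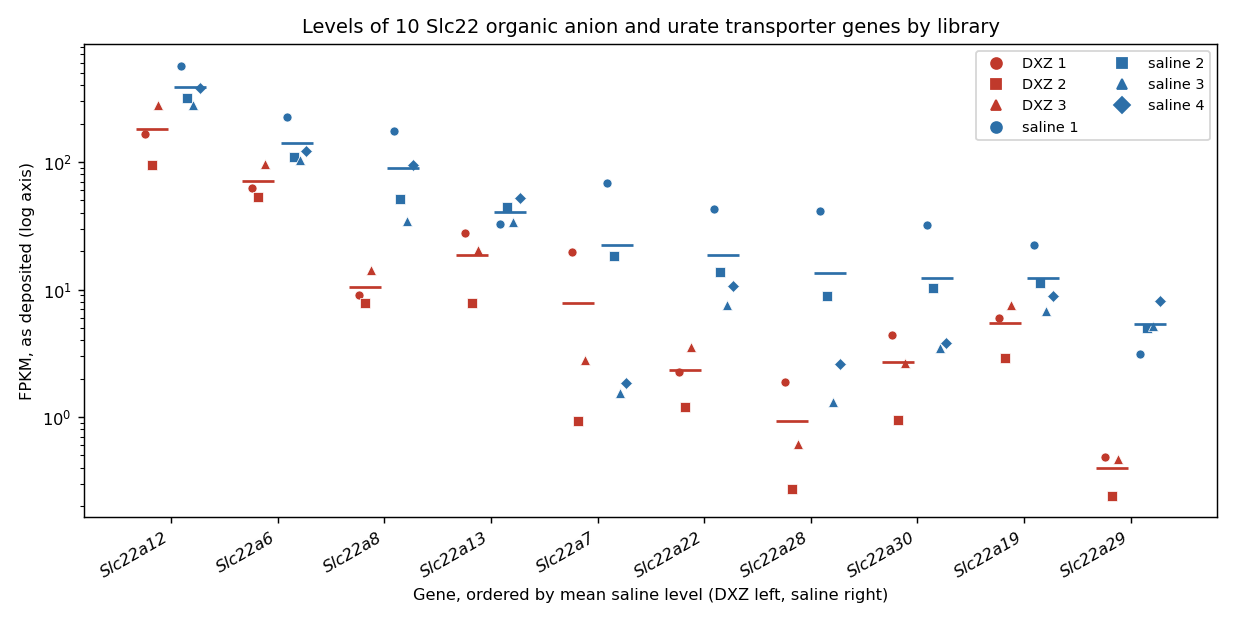
Deposited FPKM (log axis) of each of the 10 genes in each library, DXZ (red, left) and saline (blue, right), with bars at the group means. The genes are ordered by mean saline level, and the DXZ means run between 0.397 FPKM for Slc22a29 and 180.4 FPKM for Slc22a12.

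Of the basolateral uptake carriers, Slc22a8 fell and Slc22a6 was lower in every DXZ library without passing the test. Both lie on chromosome 19 on the plus strand, Slc22a8 at chr19:8591254-8611834 and Slc22a6 at chr19:8617996-8628299 (GRCm38), with 6161 bases between them. Slc22a8, the gene of OAT3, had 32.4, 27.3 and 49.8 CPM in DXZ 1 to 3 and 619, 180.1, 122 and 329 CPM in saline 1 to 4. The groups were far apart, since the highest DXZ library lay below the lowest saline library. Its mean was 36.5 ± 11.8 CPM in DXZ kidneys (SD, n = 3) and 313 ± 222 CPM in saline kidneys (SD, n = 4). Slc22a8 had a log2 fold change of -3.10 with an SE of 0.58 (edgeR adjusted p = 0.0306), a level 8.56-fold higher in saline kidneys. The call was lost without DXZ 2 (edgeR adjusted p = 0.105), without DXZ 3 (0.0697) and without saline 4 (0.0867), while the log2 fold change stayed between -3.39 and -2.53 over the 7 leave-outs.

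Slc22a6, the gene of OAT1, had 256, 213 and 394 CPM in DXZ 1 to 3 and 917, 441, 419.8 and 492 CPM in saline 1 to 4. Saline 1 stood well above the other libraries, and the highest DXZ library came close to the lower saline libraries without reaching them. Its log2 fold change of -0.98 with an SE of 0.33 did not pass (edgeR adjusted p = 0.114). Slc22a7, the gene of OAT2, which is also a liver carrier, lies at chr17:46432183-46438457 on the minus strand. It had 42.2, 1.94 and 5.96 CPM in DXZ 1 to 3 and 144, 38.5, 3.24 and 3.88 CPM in saline 1 to 4. Its level varied by library more than by group: saline 1, DXZ 1 and saline 2 were high and the other 4 libraries were low, a spread of 44.5-fold among saline libraries and 21.8-fold among DXZ libraries. The log2 fold change of -1.50 with an SE of 1.42 did not pass (edgeR adjusted p = 0.552), and it was 0.12 without saline 1 (edgeR adjusted p = 0.969) and -3.58 without DXZ 1.

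Within each library the ratio of Slc22a6 to Slc22a8 was compared, since the pair lies side by side. The log2 ratio was 2.98, 2.96 and 2.98 in DXZ 1 to 3 and 0.57, 1.29, 1.79 and 0.58 in saline 1 to 4. The DXZ libraries thus had nearly the same ratio, above every saline library, whereas the saline libraries differed among themselves. The difference of 1.92 on the log2 scale is a ratio 3.77-fold higher in DXZ kidneys. An exact two-sided permutation test gave p = 0.0571, the smallest p that 3 libraries against 4 allow, and 0.343 after adjustment over the 6 pairs of members that follow each other on chromosome 19. The ratios of the other 5 pairs overlapped between groups, with exact permutation p between 0.171 and 0.857. That these pairs would be examined was decided after the values of the genes had been seen.

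**Figure D3:**
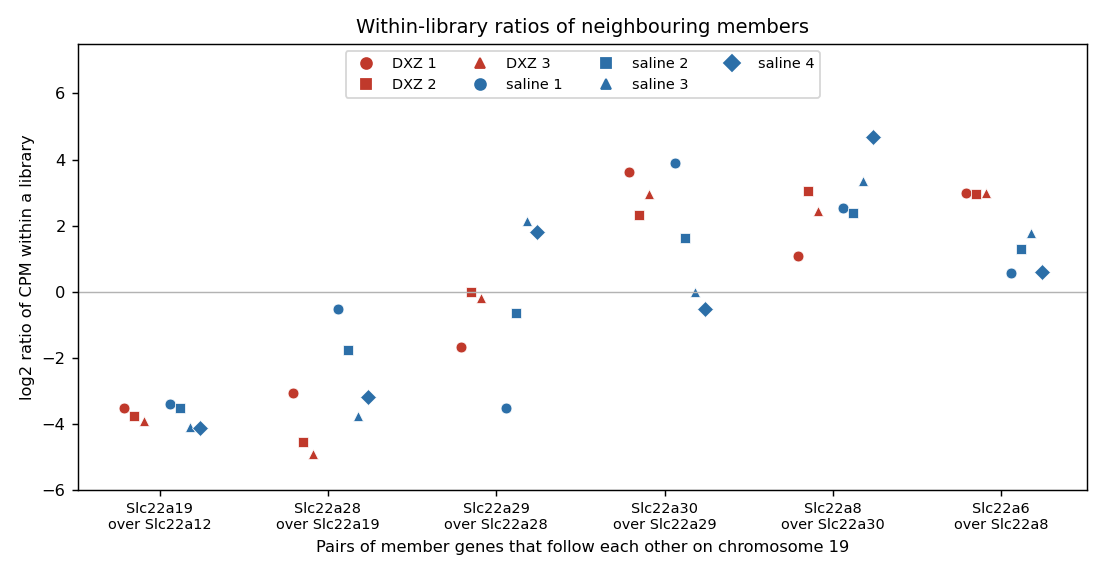
Log2 ratio of CPM within each library (vertical axis) for the 6 pairs of member genes that follow each other on chromosome 19, DXZ (red, left) and saline (blue, right). For Slc22a6 over Slc22a8 the DXZ libraries sit at 2.96 to 2.98, above the saline libraries at 0.57 to 1.79, and the groups overlap for the other 5 pairs.

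The genes of the urate carriers were lower in every DXZ library but did not pass the test. Slc22a12, the gene of URAT1, is at chr19:6535845-6543019 on the minus strand. It had 384, 214 and 631 CPM in DXZ 1 to 3 and 1296, 720.0, 639 and 855 CPM in saline 1 to 4. DXZ 3 and saline 3 nearly met, so the groups were apart by a narrow margin. The log2 fold change was -1.10 with an SE of 0.39 (edgeR adjusted p = 0.124). Slc22a12 overlaps Nrxn2, which runs on the opposite strand and had 1222 reads over the 7 libraries, whereas Slc22a12 had 21029 over the DXZ and 59719 over the saline libraries, so a share of its reads could be assigned to either gene if the counting ignored strand.

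Slc22a13, the gene of OAT10, an apical carrier of urate and nicotinate, is at chr9:119192974-119209098 on the minus strand. It had 57.0, 15.6 and 40.8 CPM in DXZ 1 to 3 and 65.3, 89.8, 68.5 and 105 CPM in saline 1 to 4. It differed from most members in that saline 1 was its lowest saline library. For Slc22a13 the log2 fold change was -1.12 with an SE of 0.39 (edgeR adjusted p = 0.123). It passed without DXZ 1, at -1.54 on the log2 scale (edgeR adjusted p = 0.0492). The gene lies within the span of Slc22a14, which had 127 reads in all, and 21.8% of its stretches of 100 bases also occur in the pseudogene Slc22a13b-ps, which had 10 reads in DXZ libraries and 13 in saline libraries.

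Slc22a22 encodes a prostaglandin-specific organic anion transporter known from mouse kidney. It fell, and it lies at chr15:57243767-57477625 on the minus strand. It had 5.64, 2.90 and 8.62 CPM in DXZ 1 to 3 and 105, 33.7, 18.6 and 26.1 CPM in saline 1 to 4. The groups did not overlap, and saline 1 was 5.65 times as high as the lowest saline library. The mean was 5.72 ± 2.86 CPM in DXZ kidneys (SD, n = 3) and 45.9 ± 40.0 CPM in saline kidneys (SD, n = 4), and the log2 fold change was -3.003 with an SE of 0.69 (edgeR adjusted p = 0.0467). This call lay just inside the threshold: it was lost without DXZ 1 (edgeR adjusted p = 0.0639), DXZ 2 (0.138), DXZ 3 (0.0911), saline 2 (0.0765) or saline 4 (0.0958), and by limma-voom with quality weights (adjusted p = 0.120). The log2 fold change over the 7 leave-outs was -3.43 to -2.19, with -2.19 without saline 1.

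Slc22a19, the gene of Oat5, an apical carrier of sulfated steroids known from rodents, is at chr19:7673061-7711310 on the minus strand. It had 33.3, 15.6 and 41.5 CPM in DXZ 1 to 3 and 122, 62.0, 37.3 and 48.2 CPM in saline 1 to 4. DXZ 3 lay above saline 3, so the groups overlapped. Its value of -1.16 on the log2 scale with an SE of 0.46 did not pass (edgeR adjusted p = 0.162).

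Slc22a28, Slc22a29 and Slc22a30 follow one another on the minus strand of chromosome 19, at chr19:8062209-8131982, chr19:8160165-8218900 and chr19:8335371-8405111, and are near copies of each other. The coding sequences of Slc22a28 and Slc22a30 were 98.8% identical, differing at 20 of 1659 bases, and each was 92.3% identical to Slc22a29. The 250 bases before the RefSeq starts (GRCm38.p6) were 97.5% identical between Slc22a28 and Slc22a30 and 75.8% between Slc22a28 and Slc22a29. The closest copy of Slc22a29 was Slc22a27, at 97.3%. Slc22a19 was 75.8% to 76.0% identical to these 3 members, and Slc22a6 and Slc22a8 were 62.9% identical to each other. The first 90 coding bases, from the GENCODE M21 transcripts of GRCm38, show how alike the 3 genes are. Capitals mark bases unlike Slc22a28.
Slc22a28: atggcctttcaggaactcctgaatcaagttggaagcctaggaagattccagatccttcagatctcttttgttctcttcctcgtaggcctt
Slc22a30: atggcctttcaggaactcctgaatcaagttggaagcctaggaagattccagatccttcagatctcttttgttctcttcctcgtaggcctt
Slc22a29: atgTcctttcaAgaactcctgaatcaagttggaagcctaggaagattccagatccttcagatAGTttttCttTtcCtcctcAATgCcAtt
Slc22a30 differed at 0 and Slc22a29 at 13 of these bases. A stretch of 60 coding bases was chosen for holding the most differences between Slc22a28 and Slc22a30. It begins at coding base 618 and holds 3 of the 20 differences, again in capitals.
Slc22a28: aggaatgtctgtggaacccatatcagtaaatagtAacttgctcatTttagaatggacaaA
Slc22a30: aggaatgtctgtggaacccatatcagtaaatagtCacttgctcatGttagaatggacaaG
Of all stretches of 100 bases in the transcripts, 37.0% of those of Slc22a28, 21.1% of those of Slc22a30 and 7.51% of those of Slc22a29 also occurred in Slc22a27 or another of the 3. The counting program is not given in the sources used here, so the split of reads among these genes is uncertain, above all between Slc22a28 and Slc22a30.

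Slc22a29 fell, and it had the smallest adjusted p of the 10 genes. It had 1.13, 0.544 and 1.06 CPM in DXZ 1 to 3 and 7.17, 11.4, 11.9 and 18.5 CPM in saline 1 to 4. These values rest on few reads, 47 over the DXZ libraries and 826 over the saline libraries, but every saline library was several times higher than every DXZ library. The mean was 0.911 ± 0.320 CPM in DXZ kidneys (SD, n = 3) and 12.2 ± 4.69 CPM in saline kidneys (SD, n = 4). The log2 fold change was -3.73 with an SE of 0.41 (edgeR adjusted p = 0.0204), a level 13.3-fold higher in saline kidneys. The call was lost without DXZ 2 (edgeR adjusted p = 0.0613) and without saline 4 (0.0563), with log2 fold changes between -3.92 and -3.47 over the 7 leave-outs.

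The other close copies also had negative fold changes but overlapped between groups. Slc22a28 had 3.89, 0.544 and 1.24 CPM in DXZ 1 to 3 and 83.9, 18.0, 2.63 and 5.17 CPM in saline 1 to 4. Saline 1 and saline 2 were high, and DXZ 1 lay above saline 3. Its log2 fold change was -3.84 with an SE of 1.31 (edgeR adjusted p = 0.117), with -4.93 without DXZ 1 and -2.18 without saline 1 as the ends of the leave-outs. Slc22a30 had 15.3, 3.21 and 9.03 CPM in DXZ 1 to 3 and 108, 34.8, 11.9 and 12.8 CPM in saline 1 to 4. Its order of libraries was close to that of Slc22a28, with saline 1 and saline 2 high and DXZ 1 above the lower saline libraries. For Slc22a30 the fold change was -2.19 on the log2 scale with an SE of 0.88 (edgeR adjusted p = 0.168), and -1.12 without saline 1.

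The 10 genes did not follow one common pattern across the 7 libraries. As a description over 7 libraries that share the group difference, Pearson's r of log2 CPM was highest for Slc22a28 with Slc22a30 (0.98), the pair that shares the most sequence. It was 0.96 for Slc22a8 with Slc22a22, for Slc22a6 with Slc22a22 and for Slc22a6 with Slc22a12. Slc22a29 stood apart from its near copies, at 0.60 with Slc22a28 and 0.55 with Slc22a30, and had the lowest r of all pairs with Slc22a7 (0.16). In the plot of centred levels, saline 1 is the highest library for 8 of the genes, whereas for Slc22a13 and Slc22a29 it is the lowest of the saline libraries. DXZ 2 is the lowest of the 7 libraries for all 10 genes, including Slc22a7, for which the groups overlapped.

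**Figure D4:**
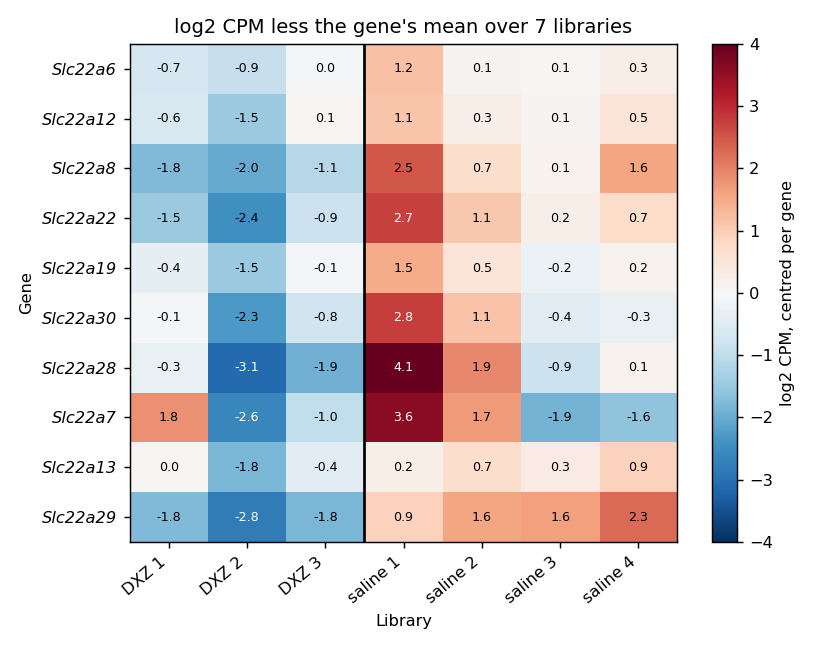
Log2 CPM of each gene less its mean over the 7 libraries (colour and printed value), with DXZ libraries left of the line and saline libraries right of it. The upper 8 genes are highest in saline 1, and Slc22a13 and Slc22a29, at the bottom, are highest in saline 4.

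Genes outside the family with the most similar pattern were ranked by Pearson's r of log2 CPM over the 7 libraries among 11143 genes averaging 5 CPM or more. For Slc22a8 they were Uqcrc2, 9530068E07Rik and Bdh2 (0.996, 0.994 and 0.994). For Slc22a22 they were Pm20d1, Ugt2b37 and Tbcel (0.999, 0.998 and 0.997), and for Slc22a29 Slc51b, Dnajc3 and Mme (0.995, 0.990 and 0.987). They are given as a description over 7 points, with no test. For Slc22a6 the list was Acat1, Hook2 and Mtss1, for Slc22a12 Dhrs4, Ankzf1 and Cideb, for Slc22a13 Narf, Rab11fip4 and Atp6v1b1, and for Slc22a19 Pecr, Nfs1 and Adh1. For Slc22a28 it was Slc17a3, Amacr and Rabl6, and for Slc22a30 Myo5a, Ptpra and Pdk3. Slc22a7 had the lowest values of the 10, with Nagk, Ttr and Rassf1 (0.982, 0.970 and 0.968).

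Set against the mean of a proximal tubule marker list, Slc22a8, Slc22a22, Slc22a28 and Slc22a29 were lower on average in DXZ kidneys whichever list was used. The side of Slc22a6 depended on the list. In each library the mean log2 CPM of a marker list was subtracted from the log2 CPM of each gene, which is a description with no test, since markers themselves differed between the groups. Against the 12 general proximal tubule markers, Slc22a8 stood at -3.13, -2.66 and -2.28 in DXZ 1 to 3 and at -1.13, -1.97, -2.10 and -1.19 in saline 1 to 4. Its difference of means, DXZ minus saline, was -1.09 without overlap, and it was -2.24 without overlap against the 7 late markers and -1.01 with overlap against the 9 early markers. For Slc22a29 the differences were -1.79 and -2.93 without overlap against the general and late markers and -1.71 with overlap against the early markers.

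Slc22a6 stood at -0.15, 0.30 and 0.70 in DXZ 1 to 3 and at -0.57, -0.68, -0.31 and -0.61 in saline 1 to 4 against the general markers, a difference of 0.82 without overlap. That difference was 0.90 without overlap against the early markers, but -0.32 with overlap against the late markers. Slc22a12 likewise stood at 0.59 and 0.67 without overlap against the general and early markers and at -0.55 with overlap against the late markers. Slc22a19 stood at 0.65 without overlap, 0.73 with overlap and -0.49 with overlap against the general, early and late lists. Slc22a22 was lower against all 3 lists, at -0.99 and -0.92 with overlap against the general and early markers and at -2.14 without overlap against the late markers. Slc22a28 was also lower on average against all 3 lists, at -1.22, -1.14 and -2.36 against the general, early and late markers. The groups overlapped against each list for Slc22a28, Slc22a7, Slc22a13 and Slc22a30. The general and early lists share some genes, Slc34a1 among them.

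The rest of the family comprised 16 further Slc22 genes, of which 12 were tested, 2 fell and 0 rose, with a median log2 fold change of -0.34. Slc22a5, the gene of the carnitine carrier OCTN2, fell by 0.63 on the log2 scale (edgeR adjusted p = 0.0215), with 152 ± 5.56 CPM in DXZ kidneys (SD, n = 3) and 236 ± 18.7 CPM in saline kidneys (SD, n = 4). Slc22a18 fell by 1.45 (edgeR adjusted p = 0.0301), with 149 ± 40.6 CPM in DXZ kidneys and 409 ± 113 CPM in saline kidneys. The call of Slc22a5 held in 4 of 7 leave-outs and that of Slc22a18 in 3. Slc22a2, the gene of the basolateral cation carrier OCT2, stood at -0.70 and did not pass (edgeR adjusted p = 0.119). Slc22a3, the gene of the cation carrier OCT3, had the largest positive value, 1.35 (edgeR adjusted p = 0.0596), at 3.72, 5.87 and 6.85 CPM in DXZ 1 to 3 and 1.95, 1.72, 3.36 and 1.53 CPM in saline 1 to 4. Its groups did not overlap, as was also so for Slc22a15 (0.75) and Slc22a21 (0.58), both higher in DXZ and short of the threshold, and 12.8% of all tested genes were higher without overlap. Slc22a26, a chromosome 19 relative of Slc22a19, stood at -2.22 with an SE of 1.07 (edgeR adjusted p = 0.240), and at -0.98 without saline 1 and -2.93 without DXZ 1, while Slc22a4 (-0.22), Slc22a14 (-0.08), Slc22a17 (-0.47) and Slc22a23 (0.10) lay nearer 0. By edgeR none of the 12 passed without DXZ 2, DXZ 3 or saline 4, and 1 passed without saline 2. Without DXZ 2, DXZ 3 and saline 4 in turn, 5, 8 and 7 had an unadjusted p under 0.05. Among all genes tested in those fits, 3191 of 15705, 3248 of 15723 and 3074 of 15205 did. Slc22a27 had 9 reads in DXZ libraries and 41 in saline libraries and was not tested. Slc22a16 and Slc22a20 had 0 reads in all 7 libraries, which allows a level of up to 0.0252 CPM over the group of libraries, counting error only.

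Partner genes of organic anion and urate handling were described from a list of 27 genes, all tested. They include dicarboxylate and monocarboxylate carriers that feed the exchange, apical efflux carriers, urate carriers, scaffold proteins and transcription factors. Of the 27, 7 fell and 0 rose, with a median log2 fold change of -0.65, while 2.31% of all tested genes fell and 3.24% rose. Slc17a1, an apical phosphate and urate carrier, fell by 1.13 (edgeR adjusted p = 0.0204), with 251, 312 and 335 CPM in DXZ 1 to 3 and 753, 582, 571 and 709 CPM in saline 1 to 4. The groups were well apart, and these saline libraries lay close to each other. Slc5a12 and Slc5a8, sodium-coupled monocarboxylate carriers whose substrates drive urate uptake, fell by 2.13 and 0.73 (edgeR adjusted p = 0.0209 and 0.0486). Slc26a1, a sulfate and oxalate exchanger, fell by 1.79 (edgeR adjusted p = 0.0206), and the organic anion carrier Slco1a6 fell by 1.65 (edgeR adjusted p = 0.0333). Slc16a9 and Slc13a1, named here after their values were seen, fell by 1.33 and 1.70 (edgeR adjusted p = 0.0432 and 0.0498). Slc13a1 stood at -2.39 without DXZ 1, the 1 of 7 leave-outs in which its call held. The calls held in 5 of 7 leave-outs for Slc17a1 and Slc5a12, 4 for Slc26a1, 3 for Slco1a6, 2 for Slc16a9 and 1 for Slc5a8.

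The efflux carriers Abcc2, Abcc4 and Abcg2 did not pass. Slc13a3, the dicarboxylate carrier that supplies the exchange of OAT1 and OAT3, stood at -1.01 on the log2 scale (edgeR adjusted p = 0.0800). Abcc2 stood at 0.01, Abcc4 at 0.46 and Abcg2 at 0.17 (edgeR adjusted p = 0.973, 0.139 and 0.636). Slc2a9, a urate carrier, stood at 0.30 (edgeR adjusted p = 0.252), Slc17a3 at -1.29 (0.135) and Slco4c1 at -0.65 (0.183). Pdzk1, the scaffold that binds apical carriers such as URAT1, stood at -1.06 (edgeR adjusted p = 0.108). Hnf4a, a transcription factor of proximal tubule identity, stood at -0.84 (edgeR adjusted p = 0.0588). By edgeR the count of 7 became 0 without DXZ 2 or saline 4. It was 2 without DXZ 3, 3 without saline 2 and 4 without saline 1. Without DXZ 2 and without saline 4, 15 and 20 of the 27 had an unadjusted p under 0.05. Among all genes tested in those fits, 3191 of 15705 and 3074 of 15205 did. In this list of 27, 11 genes were lower in DXZ without overlap and 4 were higher. Among all tested genes these shares were 11.3% and 12.8%. That the organic anion carriers differed more than these partners was not tested.

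How firmly each gene was called depended on the test and on single libraries. DESeq2 passed 8 of the 10 genes, all but Slc22a7 and Slc22a30, where edgeR passed 3. It passed 2011 of 16097 genes in all, 906 of them lower, where edgeR passed 853 of 15351, 355 of them lower. Of 17 alternative settings, Slc22a29 passed under 15, Slc22a8 under 12 and Slc22a22 under 9. Without DXZ 2 none of the 10 passed edgeR's test, and without saline 4 none did, with 4 and 9 of them at an unadjusted p under 0.05. In the same leave-outs 1 and 4 genes passed among all tested genes. An unadjusted p under 0.05 was reached there by 3191 of 15705 and 3074 of 15205 genes.

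**Figure D5:**
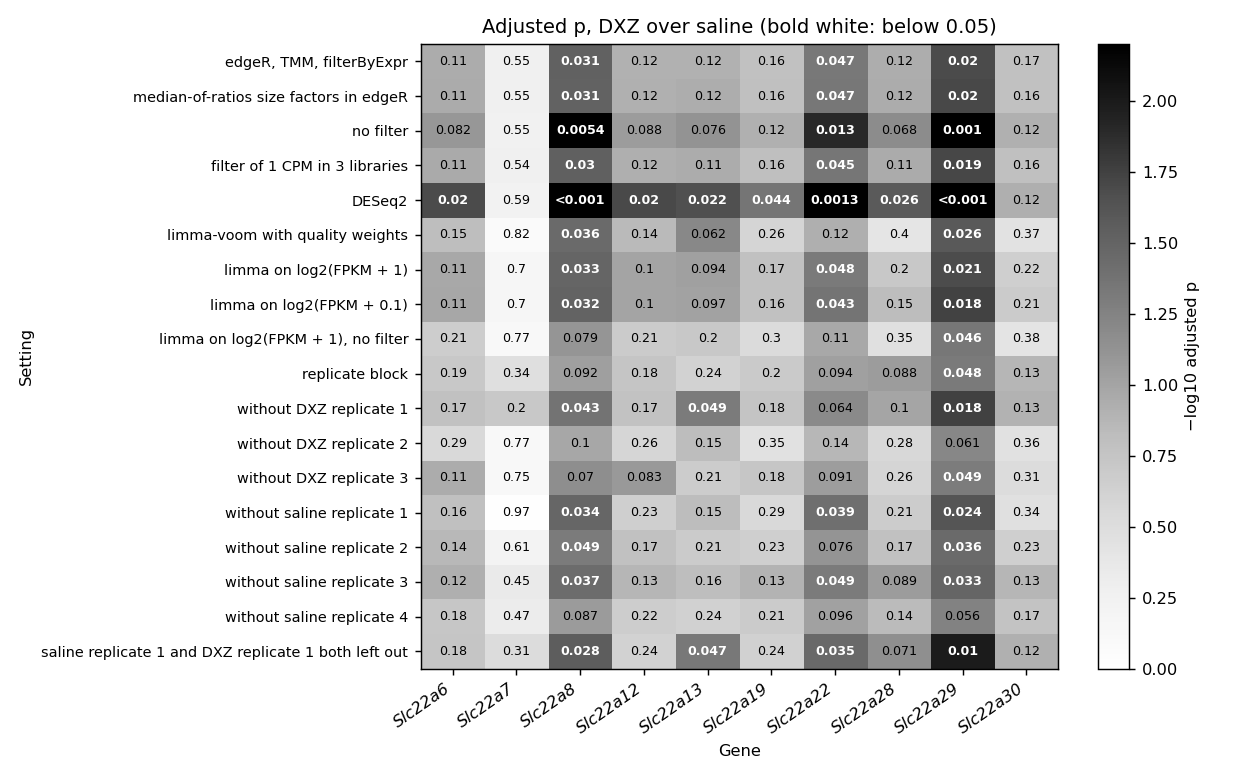
Adjusted p of each of the 10 genes (columns) by edgeR with TMM scaling (top row) and 17 alternatives (rows below), with darker cells for smaller p and bold white numbers below 0.05. Slc22a29, Slc22a8 and Slc22a22 are the columns with most white numbers, and the rows without DXZ 2 and without saline 4 have none.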

How the data were processed

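Kidney RNA of 7 libraries, 3 labelled DXZ and 4 labelled saline, was analysed from the files as deposited. The deposited counts are whole-number reads per gene and library, not normalized. The FPKM deposited by the authors equal these counts over gene length and 1 constant for each library, and are no independent measurement. HISAT2, StringTie and mm9 are named without versions or roles per the submitters' processing notes. Gene positions in the files match GRCm38 rather than mm9 and are given as GRCm38: start and end were identical for 53499 (98.3%) of 54409 identifiers also found in GENCODE M21. For the read counting, program and strand setting were not given in the sources used here.

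Counts were tested in R 4.3.3 with edgeR 4.0.16 (TMM scaling, filterByExpr, quasi-likelihood F test, Benjamini-Hochberg over 15351 tested of 54532 genes, threshold 0.05), after the procedure was tested on simulated data. Total counts were 16058157 to 18133736 per library; intervals and floors cover counting error only. CPM are from edgeR's cpm function with TMM scaling. Log2 CPM for correlations and marker differences used a prior count of 2. The SE of a log2 fold change was taken as that value over the root of its F statistic. Alternatives were median-of-ratios scaling, testing every gene with a read, requiring 1 CPM in at least 3 libraries, DESeq2 1.42.0, limma-voom (limma 3.58.1) with quality weights, limma on log2(FPKM + 1) and log2(FPKM + 0.1) with a mean FPKM of at least 1, log2(FPKM + 1) without a filter, a replicate block, each library left out, and saline 1 and DXZ 1 both left out. Replicate libraries differed by 14.8 to 97.5 times sampling noise, as chi-square over its degrees of freedom. Sequences were aligned with Biopython 1.88.

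The members, lists and settings were chosen with earlier results of these data known. Named were all 10 members, every other tested Slc22 gene, 13 fixed genes of the organic anion and urate handling list with the 4 of lowest adjusted p, the first 3 members of each marker list, of which those that bear on a result are given, and the 3 genes of most similar pattern for each member. RefSeq upstream sequences were matched for 9 of the 10 members, all but Slc22a7, and the first entry of each was aligned. A few genes that the rule names are not reported here, though counts over their lists include them.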

Additional observations from a re-analysis of the deposited data

Results flagged for a closer look

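Of 55 sets of 4 saline values examined, 4 held a library far from the other 3 by Dixon's criterion, which chance passes in about 1 in 20 groups. All 4 were the highest value and all lay in saline 1. Slc22a6 stood at 917 CPM in saline 1 and at 419.8 to 492 CPM in the other saline libraries. The organic anion carriers Slco1a1 and Slco1a6 stood at 135 and 268 CPM in saline 1, with the other saline libraries at 6.29 to 27.9 CPM and 117 to 135 CPM. Abcc2, an efflux carrier, stood at 493 CPM in saline 1 and at 329 to 342 CPM in the others. Without saline 1 the log2 fold change of Slc22a6 was -0.65 (edgeR adjusted p = 0.161).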

How the results depend on the processing

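All 10 genes kept a negative fold change under all 17 alternatives, except Slc22a7, at 0.12 without saline 1. Of 170 values of the members, 147 kept direction and side of the threshold, 15 lost their call and 7 gained one. By DESeq2, 8 members, 5 other Slc22 genes, 15 handling genes and 2011 genes in all changed. By limma on log2(FPKM + 1) without a filter these counts were 1, 1, 3 and 145. Without a filter on counts, 4 other Slc22 and 11 handling genes changed, and with neither saline 1 nor DXZ 1 in the fit 1332 genes changed in all. Leaving out each library gave 0 to 3 members, 0 to 3 other Slc22 genes, 0 to 9 handling genes and 1 to 1574 genes in all. The largest count came without DXZ 1, and the smallest without DXZ 2, with 3191 genes at an unadjusted p under 0.05 by edgeR. The cause was not tested. Log2 fold changes that changed sign over the 7 leave-outs ranged over -3.58 to 0.12 for Slc22a7, -0.063 to 0.29 for Slc22a23, -0.19 to 0.045 for Slc22a14, -0.0020 to 0.24 for Slco3a1, -0.20 to 0.17 for Abcc2 and -0.20 to 0.54 for Slc17a4. Low depth limits Slc22a29, with 47 reads over the DXZ libraries.

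The labels do not say whether same-numbered libraries form pairs. Their deviations from the group means correlated at 0.258, -0.0883 and 0.226, and not every library correlated best with its own number. So few correlations cannot settle whether the libraries were paired. With the replicate block, edgeR called 1 member (Slc22a29), 0 other Slc22 genes (5 at an unadjusted p under 0.05), 2 handling genes and 85 genes in all, and Abcc2 stood at -0.046.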

Other observations

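The uneven pattern of Slc22a7, with saline 1, saline 2 and DXZ 1 as its highest libraries, was shared in part by genes of other families, picked after their values were seen. Cyp7b1, an oxysterol hydroxylase and marker of the late proximal tubule, had 96.4, 16.9 and 63.6 CPM in DXZ 1 to 3 and 139, 65.7, 17.5 and 19.3 CPM in saline 1 to 4, so that DXZ 3 was close to saline 2, unlike in Slc22a7. Ttr, which encodes transthyretin, is on the hepatocyte marker list. Ttr had 29.3, 15.2 and 19.9 CPM in DXZ 1 to 3 and 53.1, 38.2, 20.2 and 18.0 CPM in saline 1 to 4, with the same 3 libraries highest. Neither passed edgeR's test (adjusted p = 0.985 and 0.396). Slc7a13, an amino acid carrier of the same segment, shared the high saline 1 and saline 2, at 640.4 and 132 CPM, with 37.3 and 49.8 CPM in saline 3 and saline 4, but DXZ 1 to 3 were low at 26.8, 7.32 and 20.3 CPM (edgeR adjusted p = 0.0926).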
